A study of Caenorhabditis elegans with 12 samples.

Results

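Glutathione S-transferases form one of the large enzyme families of Caenorhabditis elegans, and their messenger RNAs were followed here in whole adult worms that carried or lacked the MAP kinase kinase gene sek-1 and were fed freely or sparsely. The members were all rows of the count table whose WormBase symbol reads gst- followed by a number, which gave 44 genes of 46748 identifiers. These enzymes join the tripeptide glutathione to reactive, electrophilic compounds, such as toxins and the products of lipid oxidation, so that the conjugates can be exported from the cell. In the worm many of them are driven by SKN-1, the relative of mammalian Nrf transcription factors. Under oxidative stress the p38 kinase PMK-1 phosphorylates SKN-1, and SEK-1 is the kinase that activates PMK-1.

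Poly(A) RNA was sequenced in 12 libraries, with 3 biological replicates per group, in 4 groups: sek-1(km4) on dietary restriction (DR), sek-1(km4) fed ad libitum (AL), N2 on DR and N2 on AL. N2 is the standard wild-type strain, and km4 is a deletion allele of sek-1 present in the whole animal. All worms were adults, moved on adult day 3 from agar plates to liquid medium at 20 °C and frozen on adult day 6, so that each diet lasted 3 days. Food was Escherichia coli OP50 arrested by cold and antibiotics, at an optical density of 0.1 for DR and 3 for AL, with 10 to 20 worms per well of 1 ml. In all 4 groups the preceding plates held antibiotics and 100 mg/L of FUdR, an inhibitor of DNA synthesis that prevents progeny.

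All 44 members were annotated as protein-coding, and they were short genes. Their exons covered a median of 736.5 nt (594 to 1203 nt), against 1172 nt over the 19641 protein-coding genes of the table. Chromosome II held 25 members, V held 9, IV held 4, X held 3, I held 2 and III held 1. In the WBcel235 annotation, 25 members lay in 4 runs, in which at most 3 other protein-coding genes separated neighbours. The first run, at chrII:4879891-4893573, held gst-6, gst-7, gst-8 and gst-9 on the plus strand. The second, at chrII:13608154-13630887 on the minus strand, held 9 members, among them gst-20, gst-24, gst-15, gst-12 and gst-16. The third, at chrII:15163817-15185389 on the minus strand, also held 9, among them gst-26, gst-27, gst-28, gst-29, gst-39, gst-31 and gst-35. The fourth, at chrIV:10139380-10143099, held gst-3, gst-2 and gst-4. Reads of 50 bp from near-identical copies can be shared or split between neighbours in such runs, and values of single members within a run carry that uncertainty. The exons of gst-4 overlapped those of dhs-12 on the same strand over 65 nt, and those of gst-17 and gst-18 overlapped each other over 351 nt. Exons of gst-5, gst-40, gst-22, gst-44, gst-36, gst-2 and gst-32 overlapped a gene on the opposite strand over 1 to 93 nt. The strand setting of the counting is not given in the sources used here, so reads of those overlaps cannot be told apart.

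Total counts ranged from 13673987 to 31675540 per library. The limit that a count of 0 allows (3 counts) was 0.0947 to 0.219 CPM, the count scaled to library size, when taken on total counts. All other CPM values here were also scaled by TMM factors. On that scale 3 counts came to 0.104 CPM in the deepest library, replicate 1 of N2 on AL, and 0.279 CPM in the shallowest. Intervals and limits of this kind cover counting error only. The shallowest library, replicate 3 of N2 on AL, stood apart in this family. Relative to the mean of replicates 1 and 2 its median log2 ratio was 0.829 over the 31 members that could be tested, and 28 of them (90.3%) were highest in it. Over all 14611 tested genes the median was 0.2, and 53.3% were highest in it and 39.2% lowest, so the library was extreme in its group for most of the transcriptome. The labels place it in N2 on AL, and no value here checks that. Results are therefore given with and without that library. A limma voom fit that weighted libraries by quality gave it the lowest weight, 0.0532. Replicate 3 of N2 on DR (0.360) and replicate 3 of sek-1(km4) on AL (0.531) came next. Its differences from its group correlated with those of the other replicate 3 libraries at 0.268 to 0.387. The count of sek-1 itself is taken over the whole gene. Where its reads lie relative to the deletion was not examined, so the count checks no genotype. The sek-1 count was at 20.8 to 22.4 CPM in sek-1(km4) on DR, 16.4 to 18.8 in sek-1(km4) on AL, 23.4 to 28.6 in N2 on DR, and 22.8, 20.8 and 3.72 in N2 on AL.

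Most of the family's RNA came from 3 genes. On the scale of CPM per kb of exon, which allows levels of different genes to be compared, gst-7 averaged 140.1, gst-1 averaged 137.0 and gst-24 averaged 76.9 over the 12 libraries. gst-1 encodes a pi-class enzyme, the class known in mammals as GSTP. The order of gst-7 and gst-1 was not settled by these libraries: gst-7 was above gst-1 in 5 of 12, and gst-1 came first without replicate 3 of N2 on AL. gst-1 was above gst-24 in 9 of 12 libraries, and gst-24 was above the next member in all 12. That next member was gst-4, the usual fluorescent reporter gene of SKN-1 activity, at 16.4 CPM per kb. It was followed by gst-10, an enzyme that conjugates the lipid oxidation product 4-hydroxynonenal, at 11.3 CPM per kb. From gst-5 at 8.20 CPM per kb to gst-20 at 6.79 CPM per kb, each member was above the next in 6 of 12 libraries, so gst-5, gst-43, gst-36 and gst-20 had no clear order. Against all tested genes with an exon length, gst-7 lay above 96.7%, gst-4 above 64.9%, and gst-12, the lowest tested member, above 14.7%.

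The mean summed level of the family was 384, 470, 419 and 522 CPM per kb in sek-1(km4) on DR, sek-1(km4) on AL, N2 on DR and N2 on AL, and its makeup went with genotype. The sum over all 44 members was 387.7, 389.9 and 373.9 CPM per kb in sek-1(km4) on DR. It was 469.0, 435.4 and 505.4 in sek-1(km4) on AL. In N2 on DR it was 410.4, 410.0 and 436.4, and in N2 on AL 380.4, 359.3 and 826.3 CPM per kb. Replicate 3 of N2 on AL was far above every other library, and without it the N2 libraries on AL were below all 3 libraries of sek-1(km4) on AL. gst-24 supplied 26.7 ± 1.93% of the sum in sek-1(km4) on DR and 23.9 ± 0.416% in sek-1(km4) on AL (SD, n = 3 each). In N2 its share was 12.9 ± 6.55% on DR and 6.86 ± 2.08% on AL (SD, n = 3 each). gst-1 ran the other way, with 22.6 ± 2.39% in sek-1(km4) on DR and 25.9 ± 0.391% on AL, against 37.4 ± 2.34% in N2 on DR and 36.5 ± 4.64% on AL (SD, n = 3 each). For both genes, the shares of the 6 sek-1(km4) libraries and the 6 N2 libraries did not overlap. These shares are descriptions and were not tested.

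**Figure D1:**
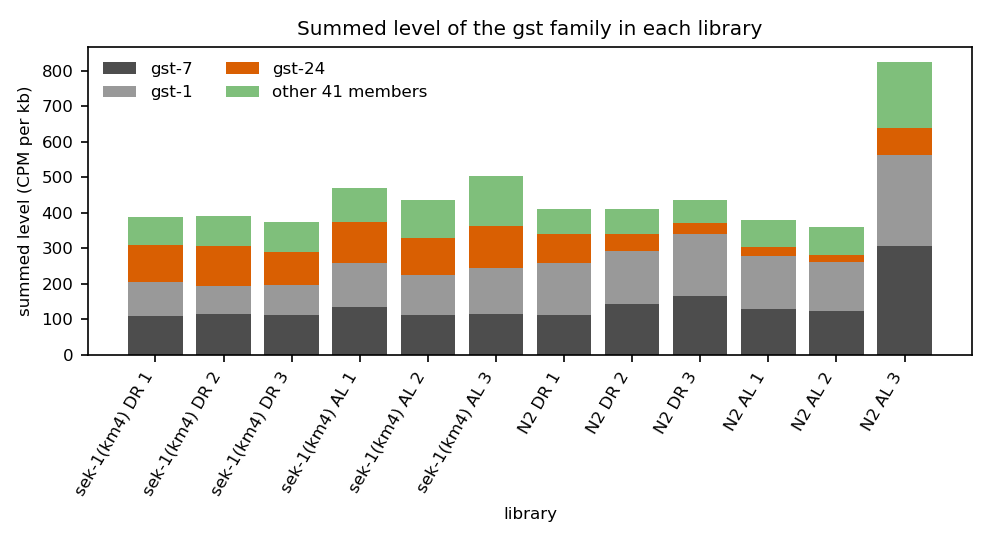
Summed level of the 44 members in CPM per kb of exon, for each of the 12 libraries, split into gst-7, gst-1, gst-24 and all other members. The gst-24 segment takes 23.6% to 28.7% of the sum in sek-1(km4) libraries and 4.91% to 19.9% in N2 libraries, and replicate 3 of N2 on AL reaches 826.3 CPM per kb.

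**Figure D2:**
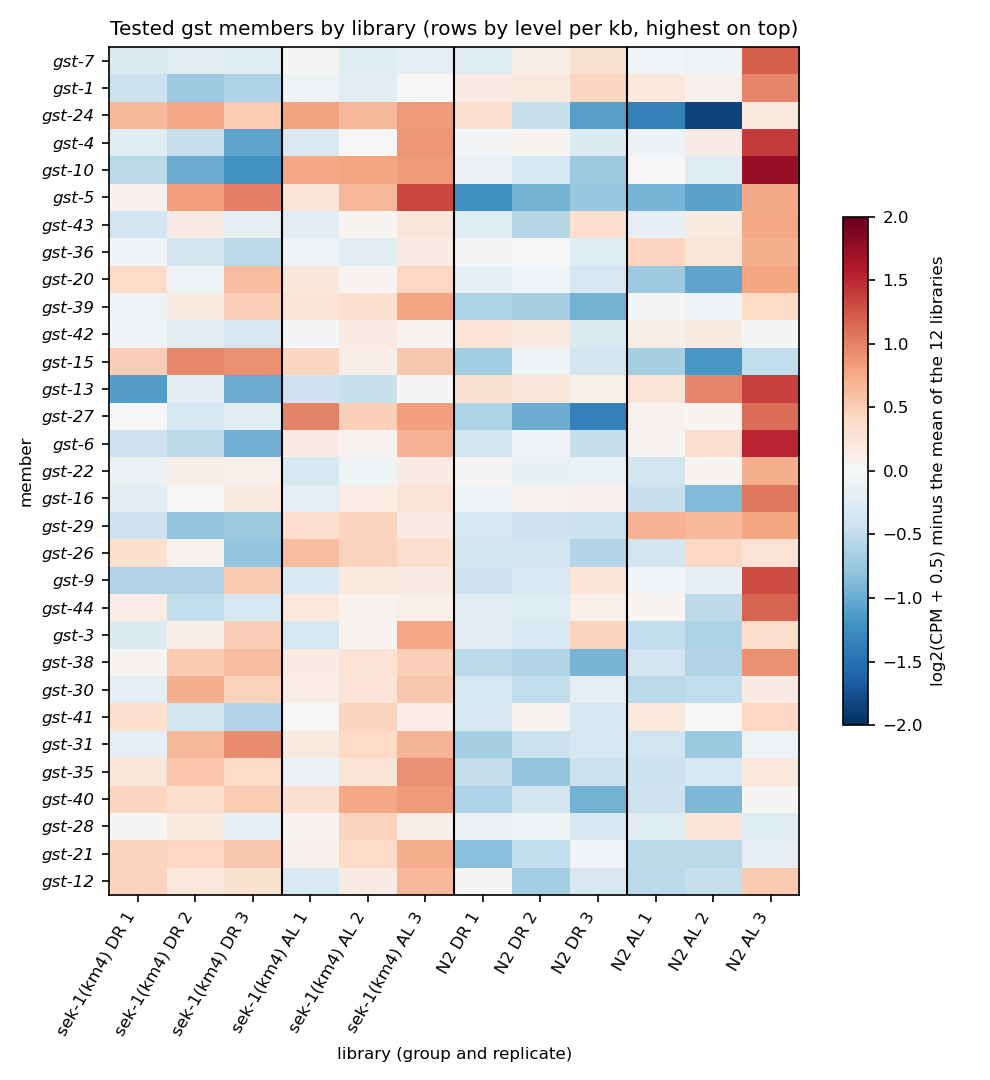
Level of each tested member in each library, as log2(CPM + 0.5) minus that member's mean over the 12 libraries, with libraries in the order sek-1(km4) DR, sek-1(km4) AL, N2 DR and N2 AL. The column of N2 AL replicate 3 is the highest of its group for 28 of the 31 members.

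On DR, 10 members were higher and 2 lower in sek-1(km4) than in N2, out of 31 tested. The members that rose were gst-5, gst-15, gst-21, gst-27, gst-30, gst-31, gst-35, gst-38, gst-39 and gst-40, by 1.13 to 2.31 on the log2 scale. Those that fell were gst-1 and gst-13. Across all 14611 genes, sek-1(km4) against N2 on DR called 24.9% higher and 14.6% lower (edgeR quasi-likelihood test, Benjamini-Hochberg adjusted p under 0.05), so a large part of the transcriptome differed by genotype. The members' shares of 32.3% higher and 6.45% lower stand against that background. Their median log2 fold change was 0.225, and that of all genes was 0.17. The median of all genes was 0.07 with RLE normalisation and -0.053 with offsets for exon length, and values of this size are read against it. Without replicate 3 of N2 on AL, which is in the fit but not in the comparison, 13 members were higher (background 34.6%) and 4 lower (background 30.0%). All genes went through the same low-count filter. Of the members called higher, gst-21, gst-30, gst-31, gst-35, gst-38 and gst-40 passed it only through sek-1(km4) libraries. The same held for gst-12, which was called only without that replicate. The share of members called higher depends on that entry.

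Tissue markers moved with genotype as well, where 24.9% of all genes were higher and 14.6% lower on DR, and 12.7% and 4.72% on AL. Without replicate 3 of N2 on AL these shares were 34.6% and 30.0% on DR, and 23.3% and 13.5% on AL. On DR, 4 of 5 germ line markers were lower in sek-1(km4), and their summed level was 1434 to 2013 CPM, against 3172 to 3652 CPM in N2. Pharynx markers were higher for 4 of 4 (31.3 to 33.7 CPM, against 6.21 to 14.45 CPM in N2) and hypodermis markers for 3 of 5 (103 to 177 CPM, against 52.4 to 115 CPM in N2). Of the intestinal markers 3 of 6 were higher and 1 lower (97.2 to 133 CPM, against 34.3 to 80.9 CPM in N2). Neuronal markers were higher for 3 of 5 (184 to 202 CPM, against 151.5 to 157.6 CPM in N2) and body wall muscle markers for 2 of 5 (235.2 to 293.5 CPM, against 85.2 to 246.6 CPM in N2). On AL, 3 of 6 intestinal markers (134 to 182 CPM, against 56.9 to 83.1 CPM in N2), 4 of 5 of the hypodermis (161 to 208 CPM, against 54.35 to 76.0 CPM in N2), 3 of 5 of neurons (169 to 184 CPM, against 148 to 244 CPM in N2) and 1 of 4 of the pharynx (18.8 to 26.9 CPM, against 15.4 to 18.3 CPM in N2) were higher. None of the 5 body wall muscle (229.3 to 419.4 CPM, against 104.2 to 432.3 CPM in N2) or 5 germ line markers (1826 to 2777 CPM, against 2256 to 3638 CPM in N2) passed on AL with all libraries. When replicate 3 of N2 on AL was left out, 3 of 5 germ line markers (pgl-1, puf-5 and rme-2) were lower on AL and 5 of 5 on DR, while the hypodermis had 5 of 5 higher on AL and 4 of 5 on DR, neurons 4 of 5 on each diet, and body wall muscle 0 of 5 on AL and 3 of 5 on DR. No marker was at 0 in all libraries, but rol-6, a cuticle collagen of the hypodermis list, was at 1.12, 1.58 and 1.40 CPM in sek-1(km4) on DR, against 0.0881, 0.0382 and 0 CPM in N2 on DR. Their part in the genotype differences of the gst genes was not tested. In RNA from whole worms, fewer cells of a type and less RNA per cell cannot be told apart.

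Among the members of moderate level, gst-5 was at 5.19, 8.97 and 10.3 CPM in sek-1(km4) on DR, against 1.81, 2.29 and 2.67 CPM in N2 on DR. All 3 mutant libraries were above all 3 wild-type ones, and the log2 fold change was 1.85 ± 0.518 (SE), with an edgeR adjusted p of 0.0158. gst-15 was at 2.85, 4.16 and 3.99 CPM in sek-1(km4) on DR, against 0.969, 1.76 and 1.35 CPM in N2 on DR. The groups did not overlap, and the log2 fold change was 1.42 ± 0.302 (edgeR adjusted p = 0.004). gst-39 was at 2.88, 3.63 and 4.58 CPM in sek-1(km4) on DR, against 1.85, 1.80 and 1.39 CPM in N2 on DR. Here too the groups were apart, with a log2 fold change of 1.13 ± 0.258 (edgeR adjusted p = 0.00573). gst-27 was at 1.69, 1.22 and 1.40 CPM in sek-1(km4) on DR, against 0.925, 0.611 and 0.358 CPM in N2 on DR. It rose by 1.19 ± 0.419 on the log2 scale (edgeR adjusted p = 0.0415). The calls of gst-15 and gst-39 held whichever of the 12 libraries was left out. That of gst-5 was lost without N2 DR replicate 1 or sek-1(km4) DR replicate 3 (adjusted p up to 0.0558). That of gst-27 was lost without N2 DR replicate 2 or 3, sek-1(km4) AL replicate 1 or 3, or any of the 3 sek-1(km4) DR replicates (adjusted p up to 0.137).

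The other 6 members that rose on DR were scarce in N2, at 1 to 11 counts per N2 DR library. The low-count filter kept 31 members over all 12 libraries but only 22 over the 6 N2 libraries alone. These 6 passed it only through the sek-1(km4) libraries, where they were high. Their entry to the tested set is therefore not independent of the direction called. gst-40 was at 0.901, 0.790 and 0.971 CPM in sek-1(km4) on DR, against 0.176, 0.306 and 0.0398 CPM in N2 on DR. It rose by 2.30 ± 0.629 on the log2 scale (edgeR adjusted p = 0.0138), and the call held in all 12 fits that left out 1 library. gst-38 was at 0.649, 1.08 and 1.19 CPM in sek-1(km4) on DR, against 0.264, 0.229 and 0.0797 CPM in N2 on DR. Its log2 fold change of 2.31 ± 0.668 was the largest in this comparison, with an edgeR adjusted p of 0.018. gst-31 was at 0.324, 0.969 and 1.29 CPM in sek-1(km4) on DR, against 0.0881, 0.191 and 0.239 CPM in N2 on DR. Its log2 fold change was 2.25, and the lowest mutant library was only a little above the highest wild-type one. gst-35 was at 0.685, 0.969 and 0.809 CPM in sek-1(km4) on DR, against 0.220, 0.0764 and 0.239 CPM in N2 on DR, with a log2 fold change of 2.18. gst-21 was at 0.829, 0.790 and 0.917 CPM in sek-1(km4) on DR, against 0.0440, 0.191 and 0.438 CPM in N2 on DR, with a log2 fold change of 1.87. Both had groups that did not overlap. gst-30 was at 0.396, 1.19 and 0.917 CPM in sek-1(km4) on DR, against 0.308, 0.229 and 0.398 CPM in N2 on DR, where the groups overlapped by a narrow margin. Its log2 fold change was 1.40, and its edgeR adjusted p of 0.049 was the weakest of the 10. Several N2 values of these members lie near the 3-count limit, which leaves the size of the rise imprecise. Leaving out 1 library ended the call of gst-38 (N2 DR replicate 3 or sek-1(km4) DR replicate 3, adjusted p up to 0.0625), of gst-31 (N2 DR replicate 1, sek-1(km4) DR replicate 2 or 3, up to 0.0656) and of gst-35 (N2 DR replicate 2, 0.051). It ended that of gst-21 for N2 DR replicate 1 or 2 and for each sek-1(km4) DR replicate (up to 0.0824). The call of gst-30 held in only 3 of 12 such fits, those without N2 AL replicate 1 or 3 or without sek-1(km4) DR replicate 1 (adjusted p up to 0.206).

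The 2 members that fell included gst-1, the most abundant transcript of the family in all 3 N2 libraries on DR per kb of exon. gst-1 was at 72.4, 58.8 and 63.6 CPM in sek-1(km4) on DR, against 110.0, 111.4 and 131.0 CPM in N2 on DR. Every mutant library was below every wild-type one. The log2 fold change was -0.85 ± 0.224 (edgeR adjusted p = 0.0115), and the call held whichever library was left out. gst-13 was at 0.613, 1.54 and 0.701 CPM in sek-1(km4) on DR, against 2.47, 2.29 and 2.07 CPM in N2 on DR. It fell by 1.24 ± 0.393 on the log2 scale (edgeR adjusted p = 0.0274), a call lost without N2 DR replicate 1 or 2 or sek-1(km4) DR replicate 1 or 3 (adjusted p up to 0.0927). Without replicate 3 of N2 on AL, gst-12, gst-20 and gst-24 were also called higher and gst-7 and gst-10 also lower. gst-24 was at 76.0, 82.8 and 68.8 CPM in sek-1(km4) on DR, against 60.4, 35.2 and 22.6 CPM in N2 on DR, with a log2 fold change of 0.95 ± 0.467 (edgeR adjusted p = 0.126) in the fit of all libraries and 0.89 (edgeR adjusted p = 0.023) without that one. gst-7 was at 81.0, 85.7 and 83.0 CPM in sek-1(km4) on DR, against 83.9, 107.6 and 123.6 CPM in N2 on DR. Its log2 fold change without that library was -0.40 ± 0.127 (edgeR adjusted p = 0.013), with groups that overlapped. gst-12 was at 0.757, 0.574 and 0.647 CPM in sek-1(km4) on DR, against 0.441, 0.0764 and 0.239 CPM in N2 on DR. gst-20 was at 6.92, 4.81 and 8.20 CPM in sek-1(km4) on DR, against 4.45, 4.97 and 4.02 CPM in N2 on DR. The groups overlapped for gst-20 but not for gst-12, and the log2 fold changes without that library were 0.50 and 1.35.

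**Figure D3:**
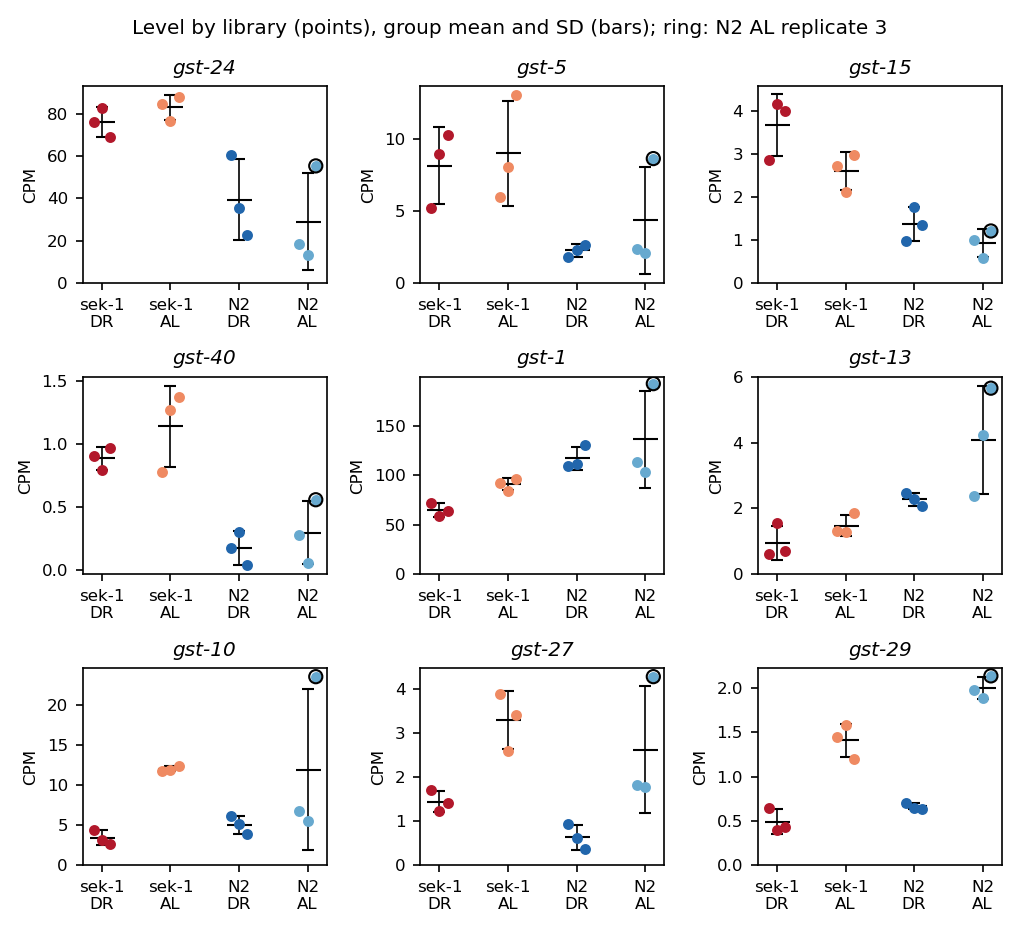
Level in CPM of 9 members (gst-24, gst-5, gst-15, gst-40, gst-1, gst-13, gst-10, gst-27 and gst-29) in each library, with 1 point per library, the group mean with its SD (n = 3) and a ring around replicate 3 of N2 on AL. gst-15 and gst-40 are higher and gst-13 lower in every sek-1(km4) library than in every N2 library of the same diet.

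On AL the same comparison called fewer members, 3 higher and 1 lower of 31 tested. gst-24, gst-15 and gst-40 rose in sek-1(km4), and gst-13 fell. Across all genes 12.7% were called higher and 4.72% lower, against 9.68% and 3.23% of the members. Without replicate 3 of N2 on AL, 13 members were higher and 1 lower (41.9% and 3.23%), where the background was 23.3% higher and 13.5% lower. The median log2 fold change of the members was 0.369 with all libraries and 0.623 without that one, against 0.022 and 0.12 over all genes. Here too gst-21, gst-30, gst-31, gst-35, gst-38 and gst-40 entered the tested set only through sek-1(km4) libraries.

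gst-24 was at 84.4, 76.6 and 88.0 CPM in sek-1(km4) on AL, against 18.6, 13.03 and 55.3 CPM in N2 on AL. All mutant libraries were above the highest wild-type library, which was replicate 3. The log2 fold change was 1.53 ± 0.475 (edgeR adjusted p = 0.0467), and 2.38 ± 0.361 (edgeR adjusted p = 0.000977) without that replicate. gst-15 was at 2.72, 2.12 and 2.96 CPM in sek-1(km4) on AL, against 1.01, 0.572 and 1.21 CPM in N2 on AL. This was the steadiest of the 4, with a log2 fold change of 1.50 ± 0.322 (edgeR adjusted p = 0.00794) and a call that held whichever library was left out. gst-40 was at 0.776, 1.27 and 1.37 CPM in sek-1(km4) on AL, against 0.278, 0.0572 and 0.557 CPM in N2 on AL. It rose by 2.03 ± 0.620 on the log2 scale (edgeR adjusted p = 0.043). gst-13 was at 1.30, 1.27 and 1.85 CPM in sek-1(km4) on AL, against 2.37, 4.23 and 5.67 CPM in N2 on AL. Its libraries did not overlap either, and it fell by 1.45 ± 0.383 (edgeR adjusted p = 0.0234). The calls of gst-24 and gst-40 each held in 4 of 12 fits without 1 library. That of gst-24 held only without N2 AL replicate 3, N2 DR replicate 1 or 3 or sek-1(km4) DR replicate 2 (adjusted p up to 0.0931 in the others). That of gst-40 held only without N2 AL replicate 3, N2 DR replicate 2 or 3 or sek-1(km4) AL replicate 1 (up to 0.103 in the others). The call of gst-13 was lost without N2 AL replicate 2 or sek-1(km4) AL replicate 1 or 2 (up to 0.0799).

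The edgeR fit without replicate 3 of N2 on AL called 10 further members higher on AL: gst-5, gst-10, gst-16, gst-20, gst-21, gst-27, gst-30, gst-31, gst-35 and gst-38. gst-5 was at 5.96, 8.04 and 13.1 CPM in sek-1(km4) on AL, against 2.33, 2.06 and 8.64 CPM in N2 on AL. With all libraries its log2 fold change was 1.10 (edgeR adjusted p = 0.15), and without replicate 3 it was 2.02 ± 0.348 (edgeR adjusted p = 0.000564). gst-10 was at 11.8, 11.96 and 12.4 CPM in sek-1(km4) on AL, against 6.75, 5.49 and 23.6 CPM in N2 on AL. The mutant libraries lay between the wild-type ones, so the log2 fold change was 0.04 (edgeR adjusted p = 0.967), and 0.97 ± 0.235 (edgeR adjusted p = 0.00595) without replicate 3. gst-20 was at 6.14, 5.38 and 7.09 CPM in sek-1(km4) on AL, against 2.96, 2.23 and 9.38 CPM in N2 on AL. gst-16 was at 0.952, 1.35 and 1.55 CPM in sek-1(km4) on AL, against 0.731, 0.400 and 2.97 CPM in N2 on AL. Both were highest in replicate 3 of N2, and their log2 fold changes without it were 1.23 and 1.10. gst-38 was at 0.741, 0.846 and 1.03 CPM in sek-1(km4) on AL, against 0.348, 0.229 and 1.58 CPM in N2 on AL. Other settings that kept replicate 3 called some of the 10. DESeq2 called gst-21 (adjusted p = 0.0386). Exon length offsets in edgeR called gst-5, gst-21, gst-30 and gst-31 (adjusted p from 0.00681 to 0.0332). The edgeR fit without the low-count filter called gst-21 and gst-31. Limma voom called all 10, but its library weights gave replicate 3 only 0.0532, so it came close to leaving that library out. That voom fit called 6963 of all 14611 genes in this comparison. In fits that left out another library, gst-21 passed without N2 DR replicate 1 or 3 and gst-31 without sek-1(km4) DR replicate 1. The 5 remaining members, gst-21, gst-27, gst-30, gst-31 and gst-35, had log2 fold changes of 2.17, 0.87, 1.82, 2.31 and 1.62 without replicate 3, with adjusted p between 0.0147 and 0.036 (edgeR). Of these gst-21 and gst-31 had groups that did not overlap even with all libraries, at 0.529, 0.769 and 1.12 CPM for gst-21 in sek-1(km4) on AL, against 0.174, 0.172 and 0.372 CPM in N2 on AL. gst-31 was at 0.564, 0.731 and 0.988 CPM in sek-1(km4) on AL, against 0.209, 0.0572 and 0.372 CPM in N2 on AL. The other 3 overlapped when replicate 3 was counted. gst-27 was at 3.88, 2.58 and 3.39 CPM in sek-1(km4) on AL, against 1.81, 1.77 and 4.27 CPM in N2 on AL. gst-30 was at 0.635, 0.731 and 0.988 CPM in sek-1(km4) on AL, against 0.209, 0.229 and 0.650 CPM in N2 on AL. gst-35 was at 0.423, 0.692 and 1.37 CPM in sek-1(km4) on AL, against 0.244, 0.286 and 0.650 CPM in N2 on AL. The comparisons on the 2 diets use different libraries. When replicate 3 was left out, they shared 11 of the 13 members called higher on each (84.6%), while over all genes the shared ones were 60.5% of those higher on DR and 89.7% of those higher on AL. With all libraries 2 members were shared, 20.0% of those higher on DR and 66.7% of those higher on AL, against 47.6% and 93.0% over all genes.

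**Figure D4:**
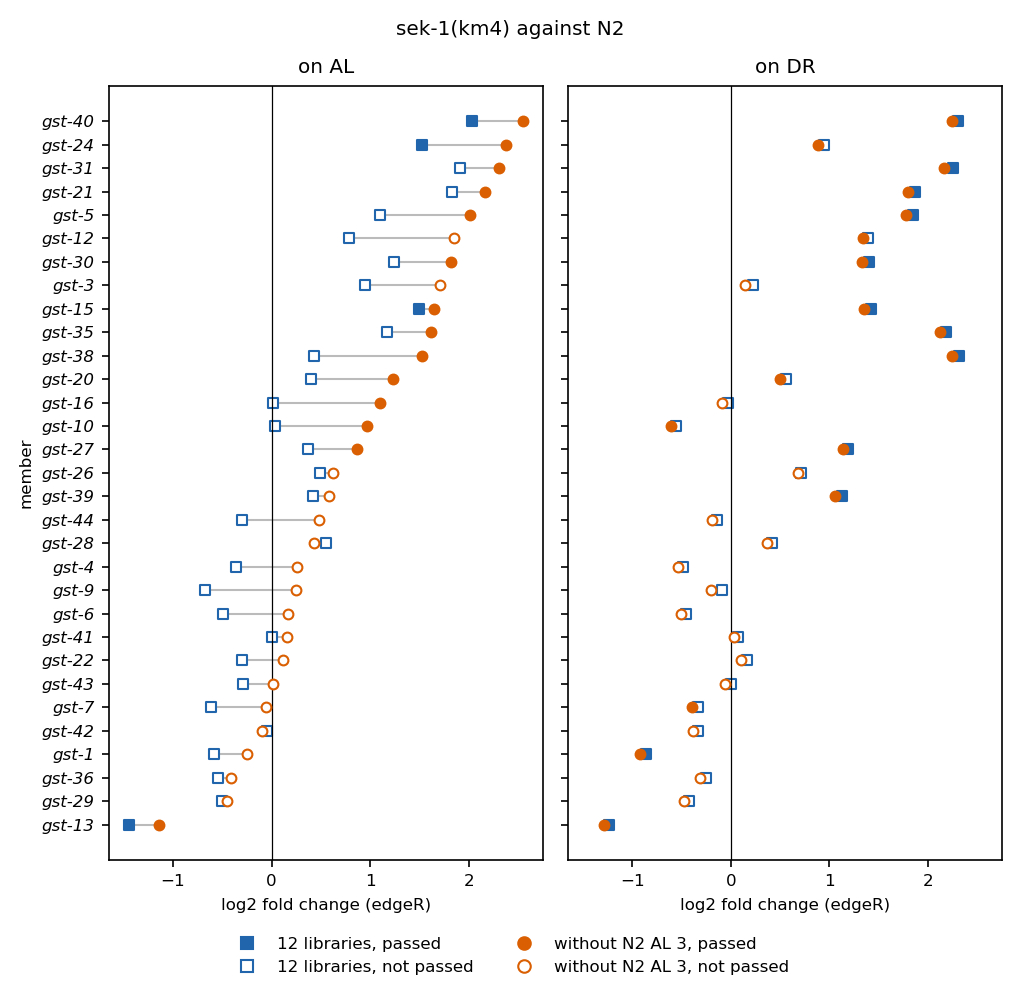
Log2 fold change (edgeR) of each tested member in sek-1(km4) against N2, on AL (left) and on DR (right). Squares give the fit of all 12 libraries and circles the fit without N2 AL replicate 3. Filled marks passed an adjusted p of 0.05. On AL the filled marks on the right of 0 number 3 with all libraries and 13 without that replicate, while on DR they number 10 and 13.

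In sek-1(km4), DR against AL called 1 member, gst-29, which was lower. gst-29 was at 0.649, 0.395 and 0.431 CPM in sek-1(km4) on DR, against 1.45, 1.58 and 1.20 CPM in sek-1(km4) on AL. The groups were well apart, and the log2 fold change was -1.50 ± 0.266 (edgeR adjusted p = 0.0356). Across all genes diet called 0.171% higher and 0.281% lower in this genotype, so few genes passed anywhere. Of the 31 members 23 had a negative log2 fold change, with a median of -0.305, against 0.0065 over all genes. Without replicate 3 of N2 on AL, a library of the other genotype that is in the fit but not in the comparison, 5 members were lower and 0 higher, against 10.2% and 4.90% of all genes. Those 5 were gst-1, gst-6, gst-10, gst-27 and gst-29. A fit of the 6 sek-1(km4) libraries alone called the same 5, against 8.30% of genes lower and 7.08% higher.

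gst-10 had the largest log2 fold change for diet among the 31 tested members in the mutant. It was at 4.43, 3.12 and 2.64 CPM in sek-1(km4) on DR, against 11.8, 11.96 and 12.4 CPM in sek-1(km4) on AL. The log2 fold change was -1.82 ± 0.470 (edgeR adjusted p = 0.137) with all libraries and -1.85 ± 0.214 (edgeR adjusted p = 0.000234) without the N2 library. gst-27 was at 1.69, 1.22 and 1.40 CPM in sek-1(km4) on DR, against 3.88, 2.58 and 3.39 CPM in sek-1(km4) on AL. gst-6 was at 1.19, 1.04 and 0.647 CPM in sek-1(km4) on DR, against 2.01, 1.85 and 3.13 CPM in sek-1(km4) on AL. Neither gene overlapped between diets, and without the N2 library their log2 fold changes were -1.23 ± 0.270 (edgeR adjusted p = 0.0116) and -1.27 ± 0.289 (edgeR adjusted p = 0.013). The abundant gst-1 was at 72.4, 58.8 and 63.6 CPM in sek-1(km4) on DR, against 92.5, 84.7 and 96.7 CPM in sek-1(km4) on AL, a log2 difference of -0.53 ± 0.110 without that library (edgeR adjusted p = 0.00919). The call of gst-29 held in 4 of 12 fits without 1 library, those without N2 AL replicate 3, N2 DR replicate 3, sek-1(km4) AL replicate 3 or sek-1(km4) DR replicate 1, with an adjusted p of up to 0.223 in the others.

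In N2, DR against AL called 2 members, gst-27 and gst-29, both lower and both in the third run on chromosome II. gst-29 was at 0.705, 0.650 and 0.637 CPM in N2 on DR, against 1.98, 1.89 and 2.14 CPM in N2 on AL. Replicate 3 of N2 on AL was close to the other 2 here, and the log2 fold change was -1.58 ± 0.261 with it and -1.52 ± 0.296 without it (edgeR adjusted p = 0.0172 and 0.0105). gst-27 was at 0.925, 0.611 and 0.358 CPM in N2 on DR, against 1.81, 1.77 and 4.27 CPM in N2 on AL. Its groups did not overlap, with a log2 fold change of -2.01 ± 0.421 (edgeR adjusted p = 0.0484), and -1.50 ± 0.342 (edgeR adjusted p = 0.0283) without replicate 3. Across all genes diet called 0.363% higher and 0.725% lower in N2, and 1.23% higher and 1.51% lower without replicate 3. The median over the members was -0.599 with all libraries and -0.0707 without replicate 3, against -0.058 and 0.032 over all genes, so the low median of the family in N2 rested on that library. The call of gst-29 was lost without N2 DR replicate 1, 2 or 3 (adjusted p up to 0.0896). That of gst-27 held only without N2 AL replicate 1 or 3 (up to 0.18 in the others). gst-29 was thus lower on DR in both genotypes, in comparisons that share no library but take their spread from 1 fit. With the 6 N2 libraries alone its edgeR adjusted p was 0.189 (0.0515 without replicate 3 of N2 on AL), and with exon length offsets it was 0.0657 in N2 and 0.0508 in sek-1(km4). Without the low-count filter it was 0.0609 in sek-1(km4).

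**Figure D5:**
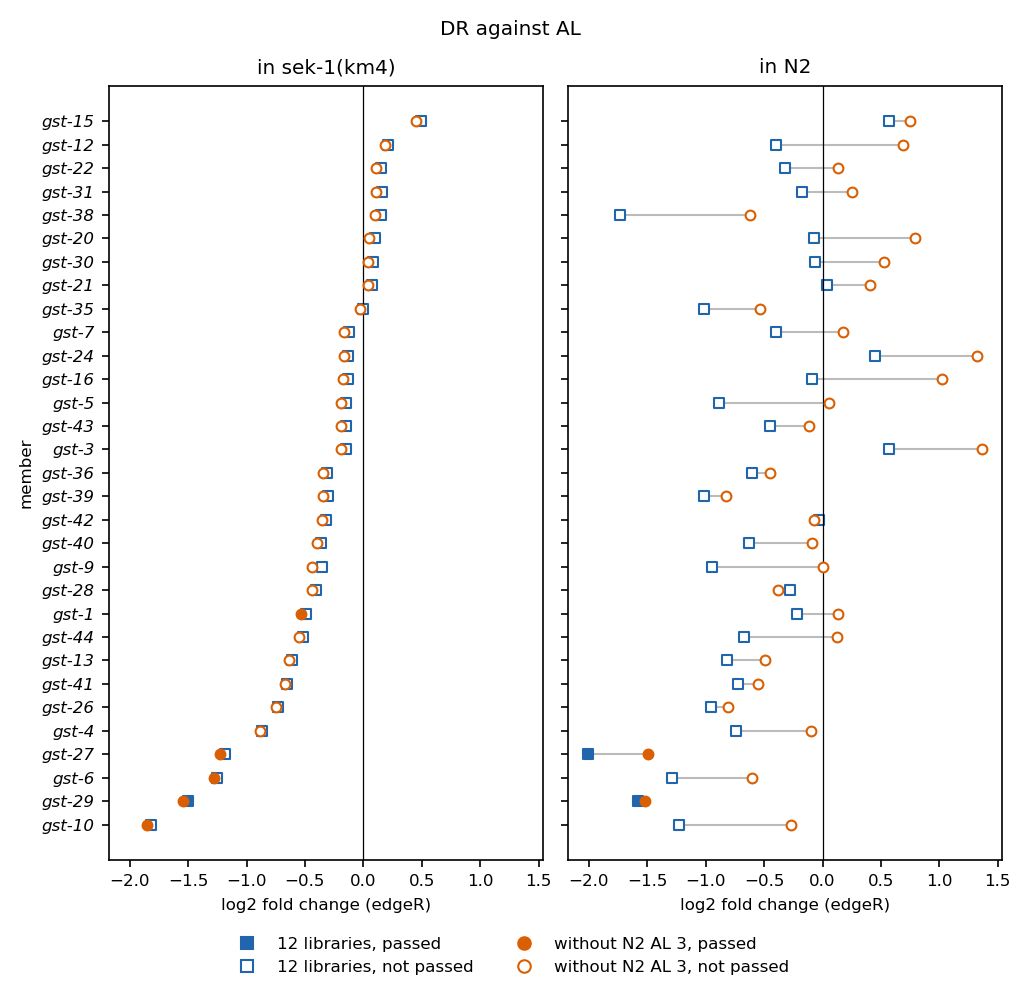
Log2 fold change (edgeR) of each tested member on DR against AL, in sek-1(km4) (left) and in N2 (right), with all 12 libraries (squares) and without N2 AL replicate 3 (circles); filled marks passed an adjusted p of 0.05. In sek-1(km4) the squares and circles nearly coincide but 1 square and 5 circles are filled, while in N2 the median moves to -0.0707 without that replicate, against -0.599 with it.

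No member passed the test for a diet response that differs between the genotypes. This genotype by diet interaction called 0 of 31 members and 0 of all genes (0.0% in either direction) with edgeR, and at an unadjusted p under 0.05 it held 0 members and 1302 genes. Without replicate 3 of N2 on AL it called 0 members against 0.0606% of genes higher and 0.0269% lower, and 5 members (gst-1, gst-10, gst-16, gst-20 and gst-24) and 2390 genes had an unadjusted p under 0.05. Of those, gst-10 had an interaction of -1.58 ± 0.320 on the log2 scale (edgeR adjusted p = 0.0929). Its diet values in N2 were 6.12, 5.12 and 3.86 CPM on DR, against 6.75, 5.49 and 23.6 CPM on AL. A limma voom fit that weighted libraries by quality, in which N2 AL replicate 3 had a weight of 0.0532, called 3 members: gst-10 at -1.64 (adjusted p = 0.00175), gst-24 at -1.29 (adjusted p = 0.0302) and gst-1 at -0.56 (adjusted p = 0.0181). That fit, which changes the test and the weights of all 12 libraries at once, called 6.13% of all genes lower and 3.28% higher, so 3 of 31 members are close to its background. DESeq2 called 0 members.

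gst-3, gst-4, gst-9, gst-22, gst-26, gst-28, gst-36, gst-41, gst-42, gst-43 and gst-44, 11 of the 31 tested, passed in no comparison with or without replicate 3 of N2 on AL. Their log2 fold changes for genotype ran from -0.48 to 0.72 on DR and from -0.68 to 0.94 on AL with all libraries, and from -0.53 to 0.68 on DR and -0.41 to 1.71 on AL without that replicate. The upper end on AL was gst-3 (edgeR adjusted p = 0.0661). gst-4, the SKN-1 reporter gene, was at 9.12, 7.72 and 4.96 CPM in sek-1(km4) on DR and 8.68, 10.8 and 20.4 CPM in sek-1(km4) on AL. It was at 10.6, 11.1 and 8.88 CPM in N2 on DR and 9.95, 12.2 and 29.4 CPM in N2 on AL. Its libraries overlapped in every comparison, and the lowest adjusted p was 0.0523 (edgeR), for DR against AL in sek-1(km4) without the N2 library, at a log2 fold change of -0.89 ± 0.285. gst-42 encodes the zeta-class enzyme maleylacetoacetate isomerase of tyrosine breakdown. It was at 2.74, 2.44 and 2.21 CPM in sek-1(km4) on DR, 2.86, 3.35 and 3.05 CPM in sek-1(km4) on AL, 3.66, 3.36 and 2.31 CPM in N2 on DR, and 3.24, 3.37 and 2.88 CPM in N2 on AL. It was the 1 tested member that was lowest in replicate 3 of N2 on AL within its group. A p above the threshold does not show that these genes were equal between groups. The 13 members too low to test were gst-2, gst-8, gst-11, gst-14, gst-17, gst-18, gst-19, gst-23, gst-25, gst-32, gst-33, gst-34 and gst-37, at a mean of 0.0270 to 0.254 CPM, with at most 22 counts in a library. gst-37 had 0 counts in all 6 N2 libraries and 0 to 2 in the sek-1(km4) libraries, which is under the 3-count limit in both.

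By position, 7 of the 12 members called for genotype on DR and 2 of the 4 called on AL lay in no run, and the others lay in the second run and the third run on chromosome II. Of all 31 tested members, the runs held 3, 5, 7 and 2 in order, and the rest lay in no run. Whether calls went with position was not tested. The share of all genes called higher was 24.9% on DR and 12.7% on AL, and 34.6% and 23.3% without replicate 3 of N2 on AL. In the third run 4 of 7 tested members (gst-27, gst-31, gst-35 and gst-39) were higher in sek-1(km4) on DR, with log2 fold changes from -0.42 to 2.25 over the run. In the second run 1 of 5 (gst-15) was higher on DR and 2 of 5 (gst-15 and gst-24) on AL, and 4 of 5 on each diet without replicate 3 of N2 on AL. gst-24 (chrII:13610443-13611366) and gst-15 (chrII:13611770-13613196) are neighbours in it. None of the 3 tested members of the first run or the 2 of the fourth passed for genotype with all libraries. Members of a run lie close together and may share reads, which was not checked, so their calls are not taken as independent.

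Around the transferases, some other genes of the glutathione pathway passed for genotype. Their counts stand against 24.9% of all genes higher and 14.6% lower on DR, and 12.7% and 4.72% on AL. Without replicate 3 of N2 on AL these shares were 34.6% and 30.0% on DR, and 23.3% and 13.5% on AL. Of 5 genes of glutathione synthesis and reduction, only gss-1, glutathione synthetase, passed with all libraries: it was lower in sek-1(km4) by -0.97 ± 0.149 on DR (edgeR adjusted p = 0.000683) and -0.47 ± 0.148 on AL (edgeR adjusted p = 0.0472). gcs-1, the rate-limiting enzyme of synthesis and a SKN-1 target, was at 70.5, 61.2 and 61.8 CPM in sek-1(km4) on DR, against 88.95, 86.1 and 76.0 CPM in N2 on DR. It passed only without replicate 3 of N2 on AL, at log2 fold changes of -0.43 on DR and -0.40 on AL (edgeR adjusted p = 0.00254 and 0.0178). Without that library gsr-1 and trxr-2 were lower on DR as well, so 4 of 5 passed on DR and 2 of 5 on AL. Of 8 glutathione peroxidases, gpx-3 and gpx-8 rose on DR (2.17 and 2.16 on the log2 scale) and gpx-3 and gpx-5 on AL (1.83 and 0.65), all in sek-1(km4) against N2. Of 8 MRP pumps, relatives of the mammalian exporters of glutathione conjugates, 5 were higher in sek-1(km4) on DR and 2 on AL, with medians over the list of 0.794 and 0.656 on the log2 scale. mrp-2 was at 76.2, 77.1 and 77.0 CPM in sek-1(km4) on DR, against 32.3, 28.1 and 18.1 CPM in N2 on DR, and its log2 fold changes were 1.55 on DR and 1.94 on AL. mrp-1 rose by 1.14 and 1.30, and mrp-5, mrp-6 and mrp-8 rose by 0.69, 0.95 and 0.77 on DR. Without replicate 3 of N2 on AL, mrp-4 and mrp-7 also passed on DR, both lower, at -1.15 and -0.62. Of 5 glutaredoxins glrx-3 was lower on DR (-0.61), and of 4 tested omega- and kappa-class transferases 0 passed. When that library was left out, glrx-5 and glrx-10 were also lower on DR, glrx-3 was lower on AL, gpx-8 was higher on AL, mrp-6 was higher on AL, and gsto-1 was higher on DR (1.19, edgeR adjusted p = 0.00578).

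Of SKN-1 and 8 of its regulators, 2 were higher and 1 lower on DR and 2 higher on AL. Over all genes 24.9% were higher and 14.6% lower on DR, and 12.7% and 4.72% on AL. pmk-1 rose by 0.65 ± 0.166 on DR and 0.71 ± 0.167 on AL (edgeR adjusted p = 0.0103 and 0.0129), and elt-3, a hypodermal GATA factor that is also in the hypodermis list, by 1.63 and 2.12. brap-2 was lower on DR by -0.75 (edgeR adjusted p = 0.0157). Without replicate 3 of N2 on AL, 3 of the list were higher and 2 lower on DR, and 2 higher and 1 lower on AL. In that fit brap-2 was also lower on AL (-0.38, edgeR adjusted p = 0.0208). The sek-1 count, which is taken over the whole gene, was lower on DR (-0.30, edgeR adjusted p = 0.0445). skn-1 itself was at 220, 205 and 193 CPM in sek-1(km4) on DR, against 178, 171 and 154 CPM in N2 on DR, and did not pass with all libraries (edgeR adjusted p = 0.447; 0.0493 without replicate 3 of N2 on AL). wdr-23, which targets SKN-1 for degradation, was at 67.7 to 73.0 CPM in sek-1(km4) on DR, against 70.7 to 75.2 CPM in N2 on DR, and did not pass in any comparison. Of 7 other genes listed as SKN-1 targets, gcs-1 among them, dhs-8 and cyp-14A3 were higher on DR (1.85 and 1.80) and C32H11.4 was lower on both diets. Whether the listed genes are SKN-1 targets or act in detoxification was not checked here. Without replicate 3 of N2 on AL, ugt-13 was also higher on DR (1.14, edgeR adjusted p = 0.00987). cyp-14A3 ran the other way on AL, at -1.18 with all libraries (edgeR adjusted p = 0.124) and -1.54 without replicate 3 of N2 (edgeR adjusted p = 0.0075). Its interaction passed in that fit (3.28, edgeR adjusted p = 0.0414). C32H11.4 was at 0.288, 0.0718 and 0.0539 CPM in sek-1(km4) on DR, against 18.7, 15.1 and 5.66 CPM in N2 on DR. On AL it was at 0.141, 0.654 and 0.902 CPM in sek-1(km4), against 10.7, 13.8 and 20.8 CPM in N2. The mutant values reach down to the 3-count limit, and no gene of these lists passed for diet in either genotype with all libraries. In the fit without replicate 3 of N2 on AL, cyp-14A3 and nit-1 were lower on DR than on AL in N2. In sek-1(km4), gss-1, gpx-5, brap-2 and nit-1 were lower and gsto-1 and mrp-5 higher on DR than on AL in that fit. Over all genes it called 1.51% lower and 1.23% higher in N2, and 10.2% lower and 4.90% higher in sek-1(km4).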

How the data were processed

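The deposited table holds whole-number read counts per gene for each of 12 libraries, not normalized; per the submitters' processing notes, the authors used featureCounts (Subread). The sources used here do not give the aligner, genome build, annotation, strand setting or versions. Members were found by symbol (43693 identifiers had one), and exon lengths and positions came from the Ensembl annotation of WBcel235. No 2 libraries held identical counts, and p-values measure the spread between libraries labelled as biological replicates. Counts were TMM-scaled and tested with edgeR 4.0.16 in R 4.3.3. filterByExpr with a minimum count of 10 left 14611 genes, among them 31 members. All 12 libraries entered 1 robust quasi-likelihood fit with a mean per group, tested on simulated data, with Benjamini-Hochberg adjustment over all genes and a threshold of 0.05. The simulated libraries shared 1 spread per gene and none stood apart. They therefore do not test the fit for a library such as replicate 3 of N2 on AL. The SE was taken from the quasi-likelihood F, as |log2 fold change| over its square root. The ratio of library 3 to its group used a pseudocount of 0.5 CPM. Alternatives were DESeq2 1.42.0, limma 3.58.1 (voom with library weights), RLE scaling, no filter, exon length offsets, fewer libraries, a replicate block and leaving out each library. The check on simulated data allowed DESeq2 a larger share of false calls than edgeR or limma voom, so its calls are alternatives only. Every member may be named; values per library are given for members that passed with or without N2 AL replicate 3, for gst-4, gst-10, gst-1 and gst-42, and for the 3 of highest level. The members and the pathway and marker lists were chosen with earlier results of these data known. In the intestinal list opt-2 is an older name of pept-1 and was counted once. Sequences were not used here.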

Additional observations from a re-analysis of the deposited data

How the results depend on the processing

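With all libraries 2 members passed for DR against AL in N2, 1 in sek-1(km4), 4 for genotype on AL, 12 for genotype on DR and 0 for the interaction. Over all 14611 genes that fit called 159, 66, 2550, 5768 and 0 in the same order. Leaving out each of the 12 libraries gave 0 to 2, 0 to 5, 1 to 14, 5 to 17 and 0 members. Over all genes these fits called 24 to 406, 6 to 2239, 1531 to 5458, 3785 to 9590 and 0 to 13. Without N2 AL replicate 3 the counts for diet in sek-1(km4) and for genotype on AL and DR were at their highest. The genes called there were 2239, 5458 and 9590 of 14847. On AL the count was 1 without N2 AL replicate 2 (2374 of 15271 genes called) or sek-1(km4) AL replicate 2 (1649 of 15113 genes). On DR it was 5 without sek-1(km4) DR replicate 3 (4057 of 15072 genes). It was 7 without N2 DR replicate 1 (4638 of 15263 genes) or 2 (4110 of 15246 genes). Voom with library weights gave 5, 11, 16, 22 and 3 of 31 members, where it called 1047, 6307, 6963, 10895 and 1374 of all 14611 genes. Fits of only the libraries compared gave 0 for diet in N2 (0 of 12264 genes called). They gave 5 for diet in sek-1(km4) (2161 of 14056 genes) and 1 for genotype on AL (1187 of 13442 genes). In such fits without N2 AL replicate 3, chosen after seeing the data, these counts were 0 for diet in N2 and 15 for genotype on AL. The genes called were 98 of 12512 and 5576 of 13725. DESeq2 gave 3 for diet in sek-1(km4) (633 of 30293 genes) and 7 for genotype on AL (3665 of 30293 genes). Exon length offsets gave 1 for diet in N2 (286 of 14611 genes) and 9 for genotype on AL (4574 of 14611 genes). The cause was not tested. Signs turned for genotype on AL in 2 members not called with all libraries. Both, gst-10 and gst-16, were called higher without N2 AL replicate 3 (edgeR adjusted p = 0.00595 and 0.0248). gst-10 was at -0.22 without N2 AL replicate 1 and -0.28 without N2 AL replicate 2, in a range up to 0.97. gst-16 was at -0.01 with DESeq2, with RLE scaling and without sek-1(km4) AL replicate 3, at -0.28 without N2 AL replicate 1 and at -0.40 without N2 AL replicate 2, in a range up to 1.10. The family sum in sek-1(km4) on DR was 369.6 CPM per kb with RLE scaling, against 384 with TMM. Of 366 alternative values of the 19 called results, 278 kept their call, 88 lost it and 0 reversed, and 5 results kept their call in every alternative. Same-numbered libraries correlated at -0.0715 to 0.388, over 0.1 in 13 of 18 pairs, and 8 of 12 libraries correlated best with their own number. The numbers were not taken as pairing because 5 pairs did not pass 0.1. All 5 were pairs of replicate 2 libraries. Pairs of replicate 1 ran from 0.117 to 0.388 and pairs of replicate 3 from 0.261 to 0.387, so a component shared by number is possible there. A replicate block gave 2, 1, 6, 12 and 0 members, against 246, 183, 3046, 6651 and 1 of 14611 genes. On AL it called gst-5 (adjusted p = 0.0238), gst-21 (0.0346) and gst-31 (0.0394) in edgeR and lost gst-40 (0.0505). Depth limits the 7 scarcest called members, which rest on as few as 1 count in a library.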
